A study of Mus musculus with 6 samples.

Results

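The nuclear-encoded genes of the mitochondrial respiratory chain and ATP synthase were followed in mouse embryonic stem cells and in the epiblast-like cells made from them. Members were every gene whose array probe carried a single symbol beginning with Nduf followed by a, b, c, s or v, the symbols Sdha to Sdhd, and symbols beginning with Uqcr, with Cox4 to Cox8 followed by a, b or c, or with Atp5. This rule used names and no measured value. It gave 87 of the 22180 genes with a single-symbol probe, of which 40 belong to complex I, 4 to complex II, 8 to complex III, 17 to complex IV and 18 to complex V. The complex I members comprised 6 core subunits, 26 accessory subunits and 8 assembly factors, Ndufaf1 to Ndufaf8. Members of complexes III and V include 1 pseudogene each, Uqcrh-ps1 and Atp5c1-ps. Ndufa4 and its paralog Ndufa4l2 were counted with complex IV.

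Complexes I and II pass electrons from NADH and succinate to ubiquinone, complex III passes them to cytochrome c, and complex IV passes them to oxygen. Complexes I, III and IV pump protons out of the mitochondrial matrix, and complex V uses the returning protons to make ATP. Nuclear genes encode most subunits and the mitochondrial genome encodes the rest, while naive embryonic stem cells are known to respire more relative to glycolysis than primed epiblast cells do.

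Total RNA of 6 cultures was measured on Affymetrix Mouse Gene 2.0 ST arrays, with 1 array for each combination of 2 cell states and 3 treatments. EpiLC had been induced from EB3 cells, a mouse embryonic stem cell line, over 2 days in N2B27 medium holding Activin A at 20 ng/ml and bFGF at 12 ng/ml on serum-coated dishes, and mESC of that line were kept in N2B27 with LIF and BMP4. Each state was left untreated, exposed for 24 hours to CHIR99021 at 3 µM (written CHIR, which blocks the kinase GSK3), or exposed for 24 hours to this dose of CHIR99021 together with PD0325901 at 1 µM (written PD, which blocks the kinase MEK). PD was given only on top of CHIR, both states come from a single line, and cell state and medium cannot be told apart. Whether the 24 hours of inhibitor fell within the 2 days of EpiLC induction is not given in the sources used here, so treated and untreated EpiLC may differ in culture age. There were no replicate cultures, so a difference between 2 arrays has a size and no error.

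The deposited values are linear intensities, with array medians of 60.5 to 65.2 and a lowest value of 16 on every array. The fitted comparisons come from 1 linear model of state plus treatment, whose error is the departure of the 6 arrays from additive effects. The summed intensity of 6 naive markers was 430 to 590.0 on the EpiLC arrays and 6206 to 8065 on the mESC arrays. The summed intensity of 5 EpiLC markers overlapped between the states, at 1504 to 7922 on the EpiLC arrays and 1107 to 3029 on the mESC arrays. Fgf5, a growth factor of the formative epiblast, stood at 1259, 770.0 and 39.4 on the untreated, CHIR and CHIR with PD arrays of EpiLC. This marker was thus low on the EpiLC array with both inhibitors. Over the 5 EpiLC markers the median log2 difference of EpiLC from mESC was 1.32 untreated, 2.46 with CHIR and 0.98 with CHIR and PD. With both inhibitors, 2 of the 5 were at least 2-fold higher in EpiLC and 0 at least 2-fold lower. In bulk RNA, fewer cells of a type and less RNA per cell cannot be told apart.

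Promoters of respiratory chain genes are known for sites of nuclear respiratory factor 1 (NRF1), of the Ets-family factor GABP and of YY1. RefSeq promoters of 300 bases (250 before and 50 after the start, build GRCm38.p6) were found for 72 of the 87 members, with 77 promoters. The NRF1 motif (the letters GCGC, then A and any base, then GCGC again), searched on both strands, was present in 18 of these 77 promoters (23.4%), against 4.6% of all 32851 promoters of that length. The windows below are shown because they hold this motif in members of complexes I, II, IV and V; each is 30 bases long on the gene's strand, and the capitals mark the match.
Ndufaf4, chr4:24897960-24897989, plus strand: ccagatgtctGCGCATGCGCctgtgcggaa
Ndufa11, chr17:56717692-56717721, plus strand: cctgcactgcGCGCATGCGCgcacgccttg
Sdhd, chr9:50603909-50603938, minus strand: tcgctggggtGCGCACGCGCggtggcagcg
Cox6a1, chr5:115349056-115349085, minus strand: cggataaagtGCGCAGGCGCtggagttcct
Atp5h, chr11:115420041-115420070, minus strand: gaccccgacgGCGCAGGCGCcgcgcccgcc

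The match begins 113 bases before the start in Ndufaf4, 60 in Ndufa11, 79 in Sdhd, 117 in Cox6a1 and 141 in Atp5h. The members with an NRF1 match numbered 17, namely 7 of complex I, 2 of complex II, 1 of complex III, 1 of complex IV and 6 of complex V. The GABP motif CCGGAAG was present in 24.7% of member promoters and 8.86% of all promoters, and the YY1 core AAGATGG in 14.3% and 6.34%. The core of the hypoxia-inducible factor site, ACGTG, was present in 24.7% and 19.6%, and the TCF/LEF motif ATCAAAG in 1.3% and 3.73%. The last of these is the motif of the TCF/LEF factors, which are 1 of the routes by which GSK3 inhibition can act on transcription. A match describes letters and not binding, and the motifs were counted separately without regard to overlap.

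Ndufaf4 had the highest fitted difference between EpiLC and mESC in complex I and Cox5a the lowest in complex IV, and their 250 bases upstream of the start are given for that reason. Capitals mark the NRF1 motif in Ndufaf4 and the ACGTG core in Cox5a, the only matches to the 5 searched motifs in these stretches.
Ndufaf4, chr4:24897833-24898082, plus strand: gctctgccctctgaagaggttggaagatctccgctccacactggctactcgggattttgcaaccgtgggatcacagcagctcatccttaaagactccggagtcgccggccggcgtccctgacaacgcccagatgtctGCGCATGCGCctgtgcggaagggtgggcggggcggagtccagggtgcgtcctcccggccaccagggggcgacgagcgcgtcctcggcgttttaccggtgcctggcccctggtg
Cox5a, chr9:57520982-57521231, plus strand: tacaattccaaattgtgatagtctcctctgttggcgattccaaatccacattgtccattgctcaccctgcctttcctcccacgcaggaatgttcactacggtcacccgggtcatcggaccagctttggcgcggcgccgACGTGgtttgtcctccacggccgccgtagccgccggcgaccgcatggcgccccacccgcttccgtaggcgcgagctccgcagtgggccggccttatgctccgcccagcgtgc

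Respiratory chain genes differed little over the 6 arrays. The highest array exceeded the lowest by a median of 1.29-fold over the 87 members, against 1.41-fold over all genes and 1.48-fold over the genes reaching an intensity of 64 on at least 1 array. This narrow range was found in 74 of 87 members (85.1%) when it is set at under 1.5-fold, against 62.3% of all genes. A range of at least 2-fold was found in 2 members (2.3%), against 13.9% of all genes, and these were Ndufa4l2 at 9.51-fold and Cox7a1 at 2.10-fold. An intensity of 64 was reached by 82 of 87 members (94.3%) and by 64.1% of all genes. This cut lies near the array medians, so the members and the other genes were not matched for intensity in these comparisons.

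The narrowest ranges belonged to complex V. The median range was 1.23-fold over its 18 members and 1.13-fold over the 5 subunits of the catalytic F1 head. Atp5b, the catalytic beta subunit, stood at 4335, 4598 and 4199 on the untreated, CHIR and CHIR with PD arrays of EpiLC, against 4347, 4604 and 4765 on those of mESC. The values of Atp5b overlap between the states and lie within 1.13-fold of each other. The median range was 1.30-fold in complex I, 1.26-fold in complex II, 1.35-fold in complex III and 1.34-fold in complex IV, and 1.51-fold over the 6 tissue isoforms of complex IV subunits.

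Averaged over the 3 treatments, respiratory chain genes as a group were level between EpiLC and mESC. With limma's moderated test at a Benjamini-Hochberg adjusted p of 0.05 over all genes, 0 of 87 members rose in EpiLC (4.15% of all genes) and 0 fell (4.15% of all genes). At an unadjusted p under 0.05 there were 11 members (12.6%), against 24.0% of all genes. The median fitted log2 difference between EpiLC and mESC was -0.03 over the members and -0.02 over all genes. By complex the median was 0.04 for I, 0.08 for II, 0.07 for III, -0.10 for IV and -0.05 for V, and higher in EpiLC were 22 of 40, 3 of 4, 5 of 8, 5 of 17 and 7 of 18 members. Within the treatments the median over the members was -0.01 untreated, 0.09 with CHIR and -0.07 with CHIR and PD. Higher in EpiLC were 46.0%, 67.8% and 40.2% of members in that order, against 50.4%, 46.6% and 46.0% of all genes. Each of these differences is 1 array against 1 array. The 3 members with the smallest adjusted p, Cox7a1, Ndufa2 and Ndufaf4, lay just above the threshold and passed it under some other settings of the same test. Where they passed, Ndufa2 and Ndufaf4 were called higher in EpiLC and Cox7a1 lower. Other settings moved all 3 further from the threshold. With a constant of 4 in place of 16 the limma adjusted p was 0.103 for Cox7a1, 0.117 for Ndufa2 and 0.128 for Ndufaf4. Without moderation the adjusted p of the same linear model was 0.279, 0.244 and 0.317 in that order.

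**Figure D1:**
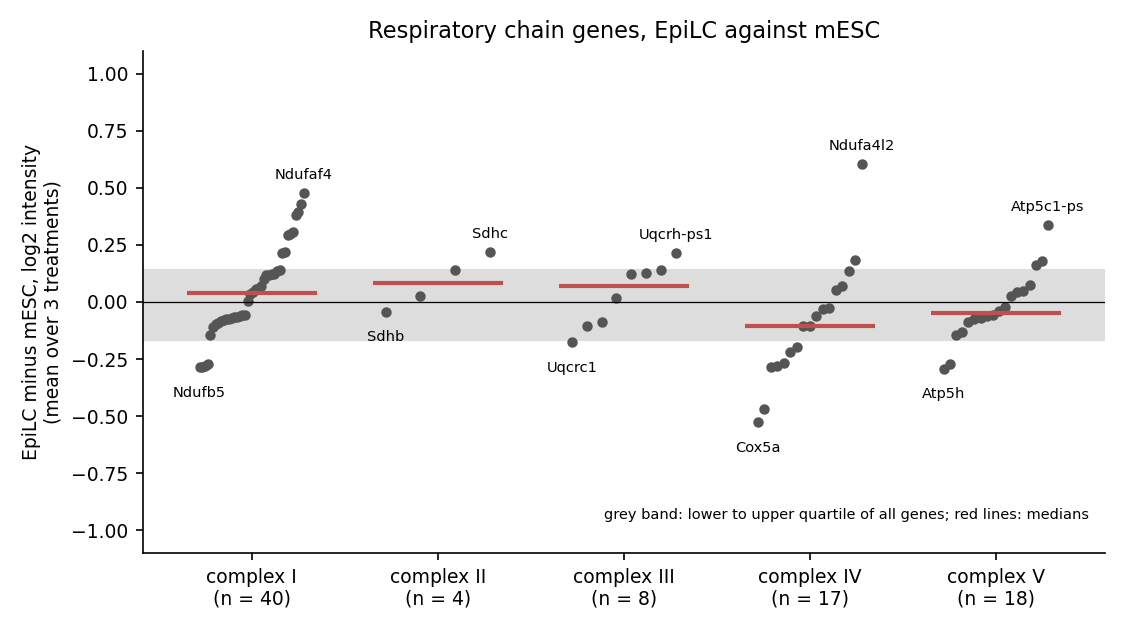
Fitted log2 difference of intensity, EpiLC minus mESC averaged over the 3 treatments, for each of the 87 genes, in order of value within its complex. Red lines mark the medians of the complexes (0.04, 0.08, 0.07, -0.10 and -0.05) and the grey band runs from the lower to the upper quartile of all genes; the highest and lowest gene of each complex are named, and no gene passed the adjusted threshold.

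All 3 EpiLC arrays lay above all 3 mESC arrays in 11 of 87 members (12.6%), against 12.4% of all genes, and below them in 7 (8.05%), against 14.4% of all genes. The members above were Ndufa2, Ndufa12, Ndufab1, Ndufb8, Ndufc2, Ndufs3, Ndufs4 and the assembly factor Ndufaf4 of complex I, and Atp5k, Atp5md and the pseudogene Atp5c1-ps of complex V. The dimmer probe of Ndufa12 overlapped between the states, at 138 to 160 on the EpiLC arrays and 129 to 166 on the mESC arrays. For Atp5k the gap between the states was only 0.006 on the log2 scale. The members below were Cox5a, Cox6a1, Cox7c and Cox8a of complex IV, Ndufa11 and Ndufb5 of complex I, and Atp5h of complex V. These shares are close to or under those of all genes.

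Ndufaf4 encodes a factor needed to assemble complex I. It stood at 585, 801 and 705 on the untreated, CHIR and CHIR with PD arrays of EpiLC, against 486, 559.9 and 448 on those of mESC. Every EpiLC array was above every mESC array, and the untreated EpiLC array was nearest to the mESC range. The fitted log2 difference was 0.48 (SE 0.12, limma adjusted p = 0.0697). Ndufa2, an accessory subunit, stood at 398, 396 and 345 on the EpiLC arrays in the same order, against 309, 279 and 259 on the mESC arrays. Its states did not overlap either, and in both the array with CHIR and PD was the lowest. The fitted log2 difference of Ndufa2 was 0.43 (SE 0.10, limma adjusted p = 0.0625).

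Ndufc2, another accessory subunit, stood at 856, 1052 and 817 on the EpiLC arrays, against 744, 709 and 631 on the mESC arrays, and the EpiLC array with CHIR was the highest. Its fitted log2 difference was 0.38 (SE 0.12, limma adjusted p = 0.115). Among complex I members the lowest fitted difference was that of Ndufb5, a membrane-arm subunit, at -0.29 (SE 0.12, limma adjusted p = 0.219). Ndufb5 stood at 328, 399 and 341 on the EpiLC arrays, against 431, 416 and 451 on the mESC arrays. Core subunits lay closer together, with a median range of 1.25-fold over the 6 arrays for Ndufs1, Ndufs3, Ndufs7, Ndufs8, Ndufv1 and Ndufv2.

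In complex II the members spanned fitted log2 differences between -0.04 for Sdhb, the iron-sulfur subunit, and 0.22 for Sdhc, a membrane anchor. Sdhc stood at 394, 561 and 487 on the EpiLC arrays, against 398, 435 and 394 on the mESC arrays, so the untreated arrays were alike and the treated EpiLC arrays were above all others. Sdha, the flavoprotein that oxidizes succinate, stood at 1206, 1421 and 1463 on the EpiLC arrays, against 1113, 1281 and 1310 on the mESC arrays. In each state the untreated array was the lowest for Sdha. In complex III the 2 core proteins lay at the ends among its subunits, with -0.18 for Uqcrc1 (SE 0.11, limma adjusted p = 0.42) and 0.14 for Uqcrc2 (SE 0.10, limma adjusted p = 0.49). Uqcrc2 stood at 1057, 1382 and 1212 on the EpiLC arrays, against 949, 1171 and 1193 on the mESC arrays, with the untreated array lowest in each state.

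Complex IV was the complex with the lowest median. Cox5a, a subunit found in all tissues, stood at 848, 813 and 756 on the untreated, CHIR and CHIR with PD arrays of EpiLC, against 1019.9, 1081 and 1412 on those of mESC. The states did not overlap, and the mESC array with CHIR and PD was the highest of all. The fitted log2 difference was -0.53 (SE 0.15, limma adjusted p = 0.099). Within the treatments the log2 difference of Cox5a between the states was -0.27 untreated, -0.41 with CHIR and -0.90 with CHIR and PD.

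Cox8a, the subunit VIII isoform of most tissues, stood at 2165, 2135 and 1856 on the EpiLC arrays, against 2560.1, 2445 and 2464 on the mESC arrays. Cox6a1, the corresponding isoform of subunit VIa, stood at 4271, 4713 and 4762 on the EpiLC arrays, against 5357, 5381 and 5239 on the mESC arrays. Neither gene overlapped between the states, and the fitted log2 differences were -0.28 for Cox8a (SE 0.10, limma adjusted p = 0.178) and -0.22 for Cox6a1 (SE 0.10, limma adjusted p = 0.276). Cox4i1 and Cox4i2, the isoforms of subunit IV, have names outside the rule. Their fitted log2 differences were -0.18 and 0.08, neither past the threshold.

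Heart and skeletal muscle replace several complex IV subunits by isoforms of their own. Of these, Cox7a1 stood at 122, 119 and 163 on the untreated, CHIR and CHIR with PD arrays of EpiLC, against 158, 159 and 251 on those of mESC. The CHIR with PD array was the highest in each state, and the states overlapped because the EpiLC array with both inhibitors lay above the untreated and CHIR arrays of mESC. The fitted log2 difference between the states was -0.47 (SE 0.11, limma adjusted p = 0.0587). The difference of CHIR with PD from CHIR was 0.45 in EpiLC and 0.66 in mESC (fitted 0.56, SE 0.13, limma adjusted p = 0.725), the largest positive value of any member in that comparison.

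The summed intensity of 6 muscle markers was 728, 645 and 2102 on the untreated, CHIR and CHIR with PD arrays of EpiLC, and 455 to 485 on the mESC arrays. Within EpiLC this sum ran in the order of Cox7a1, and it was higher on every EpiLC array than on any mESC array, while the log2 difference of Cox7a1 between the states was negative in each treatment. Actc1, the cardiac actin, made up most of the sum on the EpiLC array with both inhibitors, at 1738, and Ckm, the muscle creatine kinase, stayed between 51.9 and 58.1 on all arrays. A part of other cell types in the values of Cox7a1 was not tested. Cox6a2, a further muscle isoform, stood at 79.7, 75.9 and 63.5 on the EpiLC arrays, against 97.9, 74.4 and 95.8 on the mESC arrays, with overlap. Cox8b, Cox8c and Cox7b2, isoforms of muscle and testis, lay between 23.1 and 41.3 on every array, below the array medians. Cox6b2, the testis isoform of subunit VIb, stood at 262, 392 and 325 on the EpiLC arrays, against 443, 412 and 319 on the mESC arrays, with overlap.

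**Figure D2:**
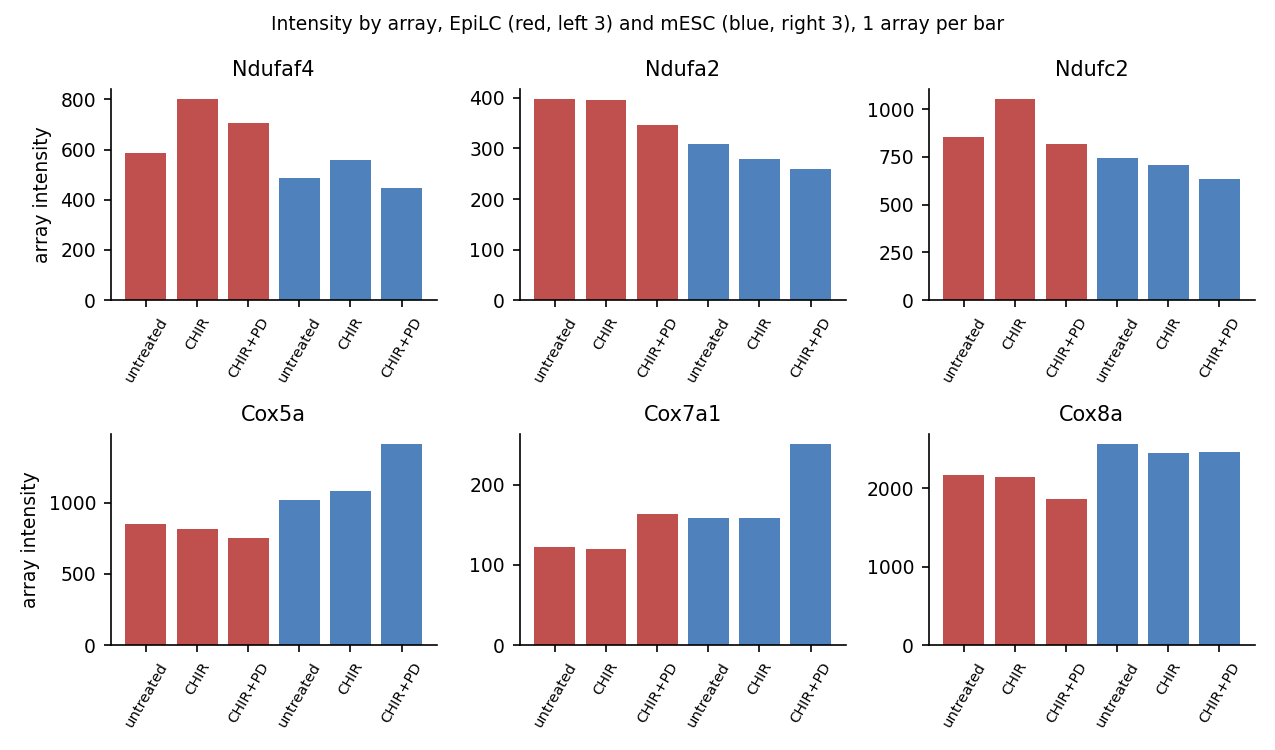
Intensity on each array (1 bar per array, linear axes from 0) for 3 complex I genes (Ndufaf4, Ndufa2, Ndufc2) and 3 complex IV genes (Cox5a, Cox7a1, Cox8a), with EpiLC in red and mESC in blue, each untreated, with CHIR and with CHIR and PD. The 3 complex I genes lie higher on every EpiLC array, Cox5a and Cox8a lie lower on every EpiLC array, and Cox7a1 is highest with CHIR and PD in each state.

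In complex V the fitted log2 differences of genes other than the pseudogene ran between -0.29 for Atp5h, a peripheral stalk subunit, and 0.18 for Atp5md, a small membrane subunit (limma adjusted p = 0.147 and 0.364). The 2 probes of Atp5h disagreed. The dimmer one, at 57.3 to 63.96 on the EpiLC arrays and 87.4 to 90.9 on the mESC arrays, gave -0.55, and the brighter one, at 1466 to 1651 on the EpiLC arrays and 1544 to 1625 on the mESC arrays, gave -0.03. The value of Atp5h thus rests on its dim probe. Atp5g1, Atp5g2 and Atp5g3 encode an identical mature c subunit of the rotor ring. Atp5g2 and Atp5g3 had fitted log2 differences of -0.06 and 0.04 between the states, and that of Atp5g1 was -0.27, none past the threshold.

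Ndufa4l2 was the exception to the narrow range. Its encoded protein resembles NDUFA4, is known as a target of hypoxia-inducible factor 1, and has been reported to lower oxygen consumption in hypoxic cells. Ndufa4l2 stood at 35.1 on the untreated EpiLC array, 334 on the CHIR array and 84.1 on the CHIR with PD array. On the mESC arrays it stood at 104 untreated, 56.6 with CHIR and 47.4 with CHIR and PD. The EpiLC array with CHIR was the highest, with the untreated mESC array next, and the untreated EpiLC array was the lowest of the 6. The states overlapped. The value of 35.1 lay next to the lower quartile of its array (34.5), and those of 56.6 and 47.4 lay below the medians of theirs (64.6 and 63.4). The table carries no measure of background, so it is not known whether these values lie above it, and differences that rest on them have no firm size.

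CHIR against untreated gave a log2 difference of 3.25 for Ndufa4l2 in EpiLC and -0.88 in mESC. CHIR with PD against CHIR gave -1.99 in EpiLC and -0.26 in mESC, and the EpiLC value shares the CHIR array with the previous one. Ndufa4l2 was the only member with a difference of at least 2-fold in any of the 9 pairs of arrays. In EpiLC, 1.77% of all genes were at least 2-fold higher with CHIR than untreated, and 1.01% at least 2-fold lower with CHIR and PD than with CHIR. The log2 difference between EpiLC and mESC was -1.57 untreated, 2.56 with CHIR and 0.83 with CHIR and PD. An additive model does not describe such values, and its difference between the states was 0.61 (SE 0.72, limma adjusted p = 0.669).

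Ndufa4, the paralog that is a subunit of complex IV, stood at 1815, 2172 and 2060.2 on the untreated, CHIR and CHIR with PD arrays of EpiLC, against 1924, 2002 and 1888 on those of mESC. Its values overlapped between the states, and the untreated EpiLC array was the lowest. Its response to CHIR was 0.26 in EpiLC and 0.06 in mESC on the log2 scale, on the arrays where that of Ndufa4l2 was 3.25 and -0.88.

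**Figure D3:**
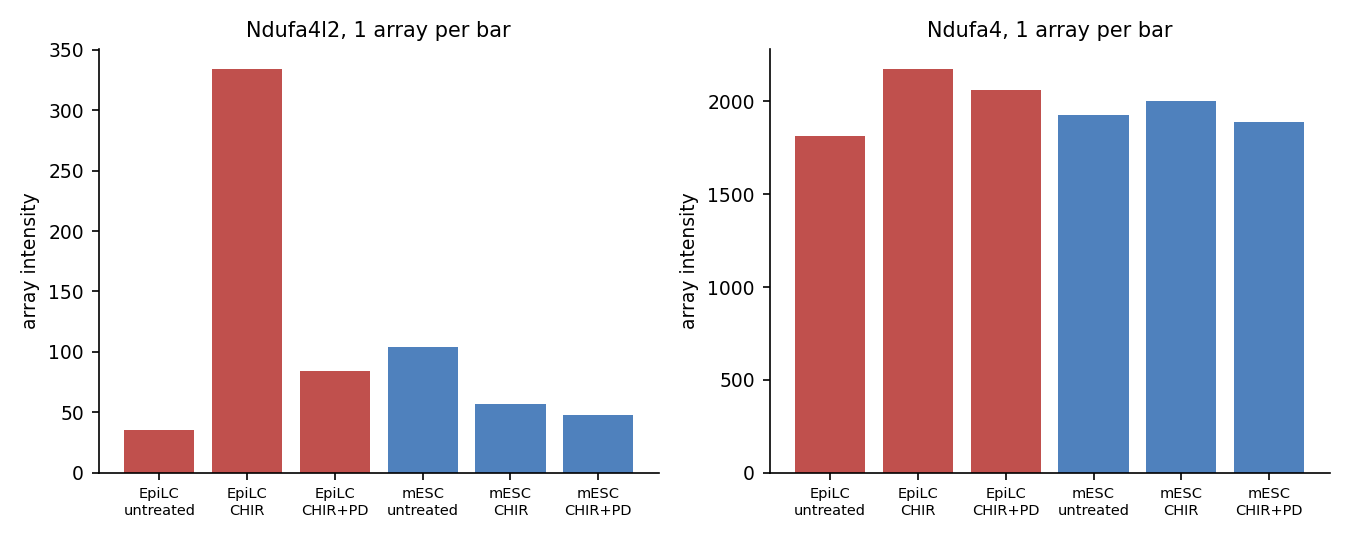
Intensity of Ndufa4l2 (left) and Ndufa4 (right) on each of the 6 arrays, 1 bar per array, on linear axes from 0 that differ in scale. Ndufa4l2 reaches 334 on the EpiLC array with CHIR and stays at 104 or lower on the 5 other arrays, whereas Ndufa4 lies between 1815 and 2172 on all of them.

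Other genes of the hypoxia response were measured on the same arrays, and a link between them and Ndufa4l2 was not tested. Over 16 such genes the median log2 difference of CHIR from untreated was 0.29 in EpiLC and -0.04 in mESC, and 3 genes in EpiLC and 0 in mESC were at least 2-fold higher, against 1.77% and 0.185% of all genes. In mESC 1 of the 16 was at least 2-fold lower, Epas1, which encodes a hypoxia-inducible factor, at -1.22, against 0.153% of all genes. The 3 genes in EpiLC were Ddit4, an inhibitor of mTOR signalling, at 2.85, P4ha1, a collagen prolyl hydroxylase subunit, at 1.29, and Egln3, a prolyl hydroxylase that marks hypoxia-inducible factors for degradation, at 1.14. With PD added to CHIR in EpiLC the log2 difference was -1.80 for Egln3, 0.02 for Ddit4 and -0.37 for P4ha1. These 3 genes were picked for high values on the EpiLC CHIR array, which this comparison shares. Over the 16 genes the median with PD added was -0.11 in EpiLC and 0.07 in mESC. At least 2-fold lower were 1 gene in EpiLC and 2 in mESC, against 1.01% and 0.523% of all genes.

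Ndufa4l2 is also a known marker of pericytes, the mural cells of small vessels. The summed intensity of 4 pericyte markers was 242, 362 and 363 on the untreated, CHIR and CHIR with PD arrays of EpiLC, and 273 to 298 on the mESC arrays. Over these 4 markers the median log2 difference of CHIR from untreated was 0.30 in EpiLC and -0.13 in mESC. Among them, Pdgfrb, a receptor shared with mesoderm, stood at 102, 203 and 208 on the EpiLC arrays. Rgs5 stayed between 33.3 and 43.0 on all 6 arrays, below the array medians. A part of pericytes in the values of Ndufa4l2 was not tested.

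For CHIR against untreated, 0 of 87 members passed the adjusted threshold in limma, as did 0.0% of all genes. At an unadjusted p under 0.05 there were 3 members (Atp5g1, Cox7b2 and Uqcrc2), or 3.45%, against 7.27% of all genes. Within EpiLC, 61 of 87 members (70.1%) were higher with CHIR than untreated by any amount, against 45.0% of all genes, and the median log2 difference was 0.14 over the members and -0.03 over all genes. Within mESC, 44 of 87 members (50.6%) were higher, against 49.5% of all genes. The median there was 0.005 over the members.

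The differences with CHIR in EpiLC were small, since 65 of 87 members (74.7%) stayed within 1.2-fold, against 64.6% of all genes. By complex, 29 of 40 members of complex I were higher, with a median of 0.18, as were 4 of 4 in complex II (0.21), 4 of 8 in complex III (0.08), 9 of 17 in complex IV (0.08) and 15 of 18 in complex V (0.10). In mESC 15 of 40 members of complex I were higher, with a median of -0.04. Ndufb11, a membrane-arm subunit of complex I, had the largest positive difference after Ndufa4l2. It stood at 91.3, 144 and 107 on the untreated, CHIR and CHIR with PD arrays of EpiLC, against 99.7, 75.4 and 82.3 on those of mESC, so that its CHIR array was the highest in EpiLC and the lowest in mESC.

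Against this direction, Atp5g1 had the lowest value with CHIR in EpiLC and in mESC among members other than Ndufa4l2. Atp5g1 stood at 96.8, 58.9 and 69.1 on the EpiLC arrays, against 100.1, 71.1 and 97.5 on the mESC arrays. The log2 difference of CHIR from untreated was -0.72 in EpiLC and -0.49 in mESC (fitted -0.60, SE 0.15, limma adjusted p = 0.582). Both CHIR arrays were the lowest of their state.

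When PD was added to CHIR, 0 of 87 members passed the adjusted threshold in limma in either direction, while 0.018% of all genes fell and 0 rose. At an unadjusted p under 0.05 there were 3 members (Cox7a1, Ndufaf6 and Ndufs5), or 3.45%, against 5.77% of all genes. In EpiLC 77 of 87 members (88.5%) were lower by any amount, against 52.5% of all genes, with a median log2 difference of -0.15 over the members and -0.02 over all genes. These values share the EpiLC CHIR array with the comparison of CHIR and untreated. In mESC 49 of 87 (56.3%) were lower, against 52.0% of all genes, with a median of -0.04 over the members. Lower in both states were 45 of 87 members (51.7%), against 29.5% of all genes, and higher in both were 6 (6.9%), against 24.9%. With 88.5% of members lower in EpiLC, most of those lower in mESC would be lower in both in any case. These counts therefore do not show that the states agree.

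The lower values with PD in EpiLC took in 38 of 40 members of complex I, with a median of -0.19 on the log2 scale, and 8 of 8 members of complex III, with a median of -0.17. Complex V had 16 of 18 lower (median -0.13), complex II 3 of 4 (median -0.21) and complex IV 12 of 17 (median -0.10). In mESC 27 of 40 members of complex I were lower (median -0.09), as were 6 of 18 of complex V (median 0.03). Cox7a2, the subunit VIIa isoform of most tissues, stood at 793, 1058 and 721 on the EpiLC arrays, so that the CHIR array alone was high. It stood at 721, 779 and 735 on the mESC arrays.

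Ndufs5 and Ndufaf6, an accessory subunit and an assembly factor of complex I, had low values with both inhibitors in both states. Ndufs5 stood at 73.6, 62.6 and 44.9 on the untreated, CHIR and CHIR with PD arrays of EpiLC, against 74.1, 80.6 and 61.2 on those of mESC. Ndufaf6 stood at 171, 199 and 138 on the EpiLC arrays, against 156, 144 and 113 on the mESC arrays. For each gene the CHIR with PD array was the lowest of its state. The fitted log2 differences of CHIR with PD from CHIR were -0.44 for both genes (SE 0.15 and 0.14, limma adjusted p = 0.843 and 0.814). A brighter probe that Ndufs5 shares with its pseudogene Ndufs5-ps did not show this order in EpiLC, at 134, 178 and 171.5 on the EpiLC arrays, against 139, 156 and 114 on the mESC arrays.

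**Figure D4:**
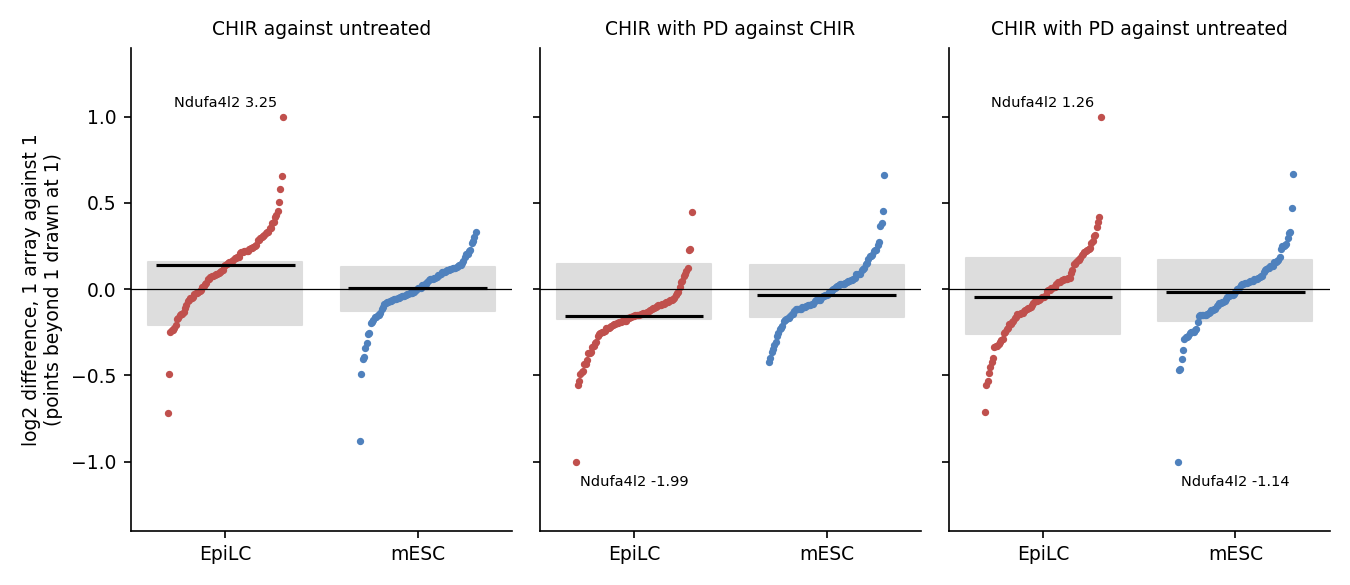
Log2 differences between single arrays for the 87 genes in EpiLC (red) and mESC (blue), in order of value, for CHIR alone (left) and both inhibitors (right), each set against untreated, and for PD added to CHIR (middle); values beyond 1 in size are drawn at 1 and are those of Ndufa4l2. Black lines are medians and grey bands the lower to upper quartile of all genes; the EpiLC median is 0.14 with CHIR, -0.15 when PD is added and -0.05 for both inhibitors against untreated.

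CHIR with PD against untreated leaves out the CHIR arrays. In that comparison 38 members were higher and 49 lower in EpiLC, and 42 were higher and 45 lower in mESC, with medians of -0.05 in EpiLC and -0.02 in mESC. In limma 0 of 87 members passed the adjusted threshold, while 0.0271% of all genes fell and 0 rose. At an unadjusted p under 0.05 there were 5 members (Cox7a1, Cox7b2, Ndufaf6, Ndufs5 and Uqcrq), or 5.75%, against 14.3% of all genes. Uqcrq, a small subunit of complex III, stood at 321, 309 and 222 on the EpiLC arrays, against 297, 285 and 251 on the mESC arrays, with the CHIR with PD array lowest in each state.

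Lists of other genes of energy metabolism were also compared between the states. Among 40 assembly factors with names outside the rule, 3 rose in EpiLC and 0 fell, with a median log2 difference of 0.05; of all genes, 4.15% rose and 4.15% fell, the shares against which this count and those of the lists that follow stand. These were Tmem70, which serves the assembly of ATP synthase, at 0.83 (SE 0.13, limma adjusted p = 0.022), Cox20, a complex IV factor, at 0.59 (SE 0.12, limma adjusted p = 0.0442), and Sdhaf3, a complex II factor, at 0.52 (SE 0.10, limma adjusted p = 0.0388). Tmem70 stood at 263, 317 and 338 on the EpiLC arrays, against 179, 177 and 159 on the mESC arrays, with no overlap. Of the 40 assembly factors, 8 had all 3 EpiLC arrays above all 3 mESC arrays and 2 had them below. The shares of all genes were 12.4% and 14.4%.

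Of 10 mitochondrially encoded subunits measured, 0 rose and 0 fell, with a median of -0.06. COX1, the catalytic subunit of complex IV, stood at 7734, 7576 and 7785 on the EpiLC arrays, against 7555, 7330.1 and 8187 on the mESC arrays, with overlap. Of 13 genes of the tricarboxylic acid cycle and 11 of pyruvate entry into mitochondria, 0 rose and 0 fell. Of 18 genes of glycolysis and lactate transport, 2 rose (Slc16a3 and Pfkm) and 2 fell (Pfkp and Hk1), in each direction a larger share than of all genes. Of 71 mitochondrial ribosomal proteins 2 rose (Mrpl13 and Mrps21) and 0 fell, with a median of -0.06.

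Among 20 regulators of mitochondrial biogenesis 0 rose and 1 fell, which was Esrrb, an orphan nuclear receptor of naive pluripotency. It stood at 22.5, 21.4 and 33.7 on the EpiLC arrays, against 357, 467 and 524 on the mESC arrays (fitted log2 difference -4.13, SE 0.14, limma adjusted p = 0.0004). Esrrb is also among the naive markers summed above, and a link between its level and the respiratory chain genes was not tested.

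For the responses within EpiLC, the median log2 difference of CHIR from untreated was 0.17 over the genes of the tricarboxylic acid cycle, -0.12 over mitochondrial ribosomal proteins and -0.02 over 65 cytosolic ribosomal proteins, beside 0.14 over the respiratory chain genes. For CHIR with PD against CHIR in EpiLC the medians were -0.12, -0.20 and -0.07, beside -0.15 over the respiratory chain genes. Mitochondrial ribosomal proteins thus had negative medians in both comparisons, which share the EpiLC CHIR array. Genes of glycolysis and lactate transport, at 0.30 and -0.37 in these comparisons, had medians larger in size than those of the respiratory chain genes.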

How the data were processed

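The deposited table holds a linear intensity for each of 33793 probes (transcript clusters) on 6 arrays, which the authors had scaled across arrays; how is not given in the sources used here. GeneSpring GX 11.5 was the software, per the series' design text. The lowest intensity on every array was 16, which compresses differences of dim genes, and the 1 array per group limits the precision.

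Probes with 1 platform symbol (23521) were kept and the mean log2 of the deposited intensities was taken for each symbol, giving 22180 genes. Another 1814 probes with several symbols and 8458 without a listed gene were left out. The 87 members had 96 probes, 9 of them with more than 1. An additive model of state and treatment (2 residual degrees of freedom) was fitted to all genes by lmFit and eBayes (limma 3.58.1, R 4.3.3), two-sided, with Benjamini-Hochberg adjustment over all genes and a threshold of 0.05. Single arrays were also compared in 9 pairs, counting differences of at least 2-fold. The model was also run on simulated data with state differences of at least 2-fold and no departure from additive effects. That run does not bear on differences as small as those of most members. Promoter sequences are those of RefSeq, GRCm38.p6.

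Named members were those past a threshold or at least 2-fold different in a pair, the highest and lowest of each complex, Ndufa4l2 and the tissue isoforms; Ndufa2, Ndufc2, Ndufb11, Ndufs5, Ndufaf6, Uqcrq, Sdha, Atp5b and genes of other lists named for a treatment response or a level were chosen after their values were seen. Members and lists were chosen with earlier results of these data known. Alternatives changed the constant in the intensities, the scaling, the filter on dim genes, the moderation, the treatment of several probes and the arrays used.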

Additional observations from a re-analysis of the deposited data

Results flagged for a closer look

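The responses of Ndufa4l2 to the inhibitors ran in opposite directions in the 2 cell states. CHIR against untreated gave a log2 difference of 3.25 in EpiLC and -0.88 in mESC, and CHIR with PD against untreated gave 1.26 in EpiLC and -1.14 in mESC. Each value is 1 array against 1 array, both comparisons share the untreated array of their state, and the difference between the states was not tested, since a model with an interaction leaves no residual. A difference of at least 0.5 in opposite directions was found in 0.212% of all genes with CHIR and in 0.5% with CHIR and PD, and among the 87 members only in Ndufa4l2. No group holds enough arrays to look for a single outlying array.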

How the results depend on the processing

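Against 0 members that rose in EpiLC, 1 rose with a constant of 64 in place of 16 (Ndufa2), and 2 rose with arrays centred on the median and with trend and robust moderation (Ndufa2 and Ndufaf4). Against 0 that fell, 1 fell with dim genes left out (Cox7a1). Ndufa2, Ndufaf4 and Cox7a1 did not pass with a constant of 4, without moderation or with any pair of arrays left out. Arrays centred on the median gave a median of 0.032 for CHIR with PD against untreated, against -0.022, where the median of all genes was 0.021, against -0.033. For Ndufa4l2 the difference between the states was -0.37 without the CHIR pair of arrays, against 0.61, and that of CHIR with PD from untreated was -0.0027 with a constant of 64, against 0.06. Sdhb gave 0.021 with arrays centred and 0.051 without the CHIR with PD pair, against -0.04. The cause was not tested. The median over the members between EpiLC and mESC lay between -0.05 and 0.04 and had no settled sign: it was -0.028 as reported, 0.0047 with quantile normalization, 0.035 with arrays centred and 0.034 without the CHIR with PD pair, and -0.03 without Ndufa4l2, a setting chosen after seeing the data. Among single genes, Atp5h gave -0.03 with its brightest probe, against -0.29, Ndufa4l2 gave 1.69 without the untreated pair, and Cox5a gave -0.34 without the CHIR with PD pair, against -0.53. Replicates could not be paired, because each group had 1 array. The treatment term of the model already compares the states within each treatment. Genes close to the lowest intensity of 16, such as Cox8b, Cox8c and Cox7b2, could not show large decreases.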

Other observations

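Probes shared by a respiratory chain gene and another symbol numbered 10 and entered no comparison of genes. Their mean log2 differences between EpiLC and mESC lay between -0.31 and 0.24. The 2 probes of Cox6c, a complex IV subunit, shared with Gm6265, gave -0.25 and -0.31. The brighter of them stood at 1496, 1412 and 1359 on the untreated, CHIR and CHIR with PD arrays of EpiLC, against 1704, 1746 and 1824 on those of mESC, with no overlap. The 2 probes of Ndufs6, a complex I subunit, shared with Ndufs6b, gave -0.19 and -0.21. The probe of Ndufb4, shared with Ndufb4b and Ndufb4c, gave -0.29, and stood at 413, 617 and 582 on the EpiLC arrays, against 611, 656 and 674 on the mESC arrays, where the untreated EpiLC array was the lowest and the states overlapped. The probe shared by Ndufs5 and Ndufs5-ps gave 0.24, while the single-symbol probe of Ndufs5 gave -0.27. Signal of these probes cannot be assigned to 1 gene.

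Outside the members, Cycs, the somatic cytochrome c, stood at 812, 814 and 627 on the EpiLC arrays, against 576, 649 and 656 on the mESC arrays, with overlap. Cyct, the testis cytochrome c, stood at 62.1, 45.9 and 50.6 on the EpiLC arrays, against 86.0, 74.1 and 61.5 on the mESC arrays. The fitted log2 differences were 0.25 for Cycs and -0.48 for Cyct, and neither passed the limma threshold.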
